A study of Mus musculus with 2 samples.

Results

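Levels of 9 genes for matrix metalloproteases, related membrane and astacin proteases and their tissue inhibitors were compared between a pair of mouse mesoangioblast clones, D16 and D351. The genes are Mmp2, Mmp3, Mmp11, Mmp14, Adam19, Bmp1, Timp1, Timp2 and Timp3, and each was found by its symbol in the annotation of the array. They are represented by 14 of 12422 non-control probe sets and are 9 of the 8251 genes with a named probe set. Mesoangioblasts are progenitors associated with embryonic vessels and can form several mesodermal cell types. Both clones came from C57BL6 mice, from the dorsal aorta at embryonic day 9.5, kept as an explant for 5 days. Single cells were then cloned over Mitomycin C-treated embryonic mouse fibroblasts in RPMI with 20% fetal calf serum and expanded on gelatin, so each group is a single clone and no allele or agent separates the groups. Total RNA was hybridised to Affymetrix U74A arrays, 1 array for D16 and 1 for D351. With 1 array per clone there is no replicate and no test, and every value below compares these arrays.

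Metalloproteases of these families hold a zinc ion in the active site and are made as inactive proenzymes. Mmp14 encodes a membrane-anchored collagenase, and Mmp2 a secreted gelatinase whose proenzyme is activated at the cell surface by MMP14 in a complex with TIMP2. Mmp3 encodes stromelysin 1, which degrades many matrix proteins, and Mmp11 stromelysin 3, which is activated inside the cell by furin. ADAM19 is a membrane protease with a disintegrin domain that sheds growth factors such as neuregulin. Bmp1 encodes the astacin protease that removes the C-propeptide of fibrillar procollagens. TIMP1, TIMP2 and TIMP3 are secreted inhibitors that block the active site. TIMP3 binds to the matrix and also inhibits ADAM proteases, while TIMP1 is a weak inhibitor of MMP14. Together these genes are known for control of matrix turnover and cell migration around growing vessels.

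The comparison asks whether a pair of clones of like origin differ in these genes. The proteases Adam19, Mmp11, Mmp14 and Bmp1 and the inhibitor Timp2 each had a level in D351 of 2-fold or more that in D16. The inhibitors Timp1 and Timp3 were within 2-fold, and Mmp2 and Mmp3 were below the intensity floor of 17.4 in both clones. Thus 5 of the 7 measured members reached 2-fold towards D351 and 0 of 7 towards D16. Over all genes the shares were 10.6% (645 of 6098) higher in D351 and 8.87% (541 of 6098) higher in D16. The median log2 ratio of D351 over D16 was 1.21 for the 7 members and -0.03 for all genes. The floor is the 40th percentile of all scaled intensities, and a gene counts as measured when it reaches the floor in at least 1 clone. The measurable error is how far the log2 ratios of different probe sets for the same gene spread, with an SD of 0.52 over 806 genes. It leaves out any difference between cultures of one clone. In RNA of a whole culture, fewer cells that make a transcript and less transcript per cell cannot be told apart.

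**Figure D1:**
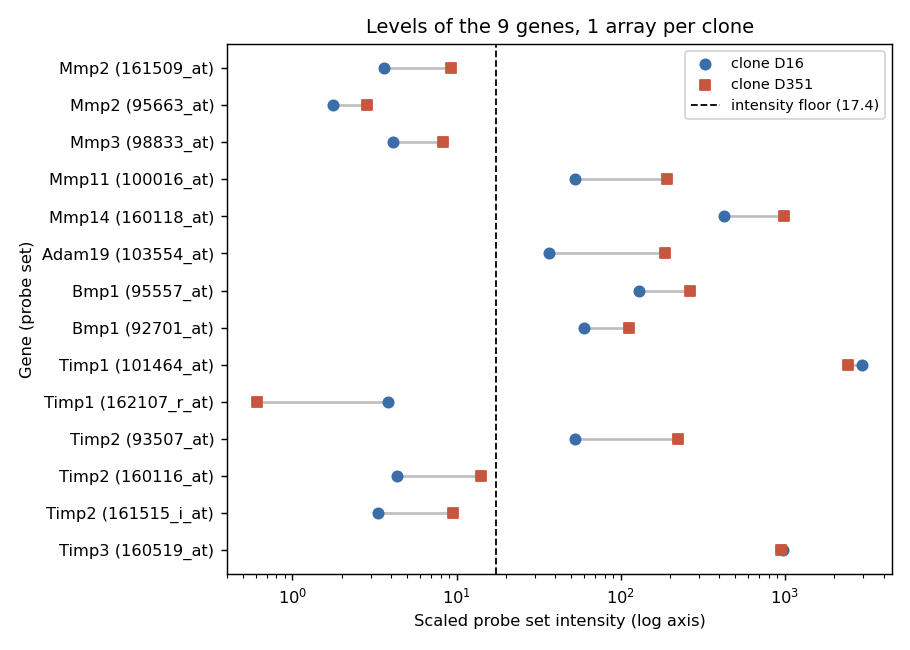
Scaled intensity (log axis) of all 14 probe sets of the 9 genes in clone D16 (circles) and clone D351 (squares), with the floor as a dashed line and 1 array per clone. Mmp11, Mmp14, Adam19, Bmp1 and the brightest Timp2 probe set lie to the right of the floor with D351 above D16, the bright Timp1 probe set and Timp3 have nearly coinciding symbols, and both Mmp2 probe sets and Mmp3 lie below the floor.

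Promoter windows are shown for the members with a single annotated start that were higher in D351 (Mmp11, Mmp14 and Timp2), for Timp1, which was not, and for Mmp3, which was below the floor. Each runs from 250 bases before to 50 bases after the start annotated by RefSeq on GRCm38.p6, written 5′ to 3′ on the gene's strand. Capitals mark the GC box GGGCGG of Sp1 family factors, the AP-1 motif TGANTCA and the TATA motif TATAAA, on either strand.
Mmp11 (chr10:75932453-75932752, minus strand): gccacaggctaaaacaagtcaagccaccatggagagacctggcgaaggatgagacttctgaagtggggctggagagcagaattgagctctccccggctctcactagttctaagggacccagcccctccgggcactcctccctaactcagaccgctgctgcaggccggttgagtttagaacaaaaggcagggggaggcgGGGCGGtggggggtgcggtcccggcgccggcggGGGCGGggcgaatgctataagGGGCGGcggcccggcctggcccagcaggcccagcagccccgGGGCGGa
Mmp14 (chr14:54431348-54431647, plus strand): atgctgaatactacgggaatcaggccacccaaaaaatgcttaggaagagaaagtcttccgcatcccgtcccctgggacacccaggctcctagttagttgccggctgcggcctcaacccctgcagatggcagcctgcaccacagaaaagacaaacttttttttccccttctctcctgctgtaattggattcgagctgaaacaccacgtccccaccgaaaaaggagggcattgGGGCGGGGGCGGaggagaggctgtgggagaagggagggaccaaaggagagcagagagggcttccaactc
Timp2 (chr11:118355362-118355661, minus strand): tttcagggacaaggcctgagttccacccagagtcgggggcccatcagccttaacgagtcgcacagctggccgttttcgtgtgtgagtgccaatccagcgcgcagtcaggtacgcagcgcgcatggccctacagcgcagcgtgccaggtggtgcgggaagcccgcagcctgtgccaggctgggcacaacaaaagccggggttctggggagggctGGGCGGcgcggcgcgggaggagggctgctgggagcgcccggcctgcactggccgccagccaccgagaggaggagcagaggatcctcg
Timp1 (chrX:20869916-20870215, plus strand): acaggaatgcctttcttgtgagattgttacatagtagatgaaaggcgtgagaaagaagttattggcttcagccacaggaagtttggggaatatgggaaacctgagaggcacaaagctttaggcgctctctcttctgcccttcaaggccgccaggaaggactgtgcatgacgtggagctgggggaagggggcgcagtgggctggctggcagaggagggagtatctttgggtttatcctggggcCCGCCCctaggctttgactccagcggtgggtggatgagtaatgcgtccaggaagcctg
Mmp3 (chr9:7445572-7445871, plus strand): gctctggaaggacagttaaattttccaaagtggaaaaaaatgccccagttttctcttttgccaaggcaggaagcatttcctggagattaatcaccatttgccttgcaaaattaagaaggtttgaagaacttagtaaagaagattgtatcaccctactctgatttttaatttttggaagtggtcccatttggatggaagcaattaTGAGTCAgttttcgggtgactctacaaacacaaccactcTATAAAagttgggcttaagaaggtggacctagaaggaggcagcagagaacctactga
The GC box was in 35.7% of all 32851 promoter windows of this length, AP-1 in 7.81% and TATA in 13.6%. Mmp11 held 4 GC boxes, Mmp14 held 2 and Timp2 held 1, and the window of Timp1 also held 1. Among these 5 windows the exact letters of the AP-1 and TATA motifs were found in that of Mmp3 alone, where AP-1 began at position -46 from the annotated start. Forms that differ from these letters were not searched, so a window without a match may still hold such a site. GC content was 67% for Mmp11, 56% for Mmp14, 68.7% for Timp2, 55% for Timp1 and 40% for Mmp3, against a median of 52.7% over all windows. Timp3, with 2 GC boxes, had a content of 67%. Adam19 has 3 annotated windows, and 1 of them held an AP-1 motif. A match describes letters in the window and not a bound site. The GC box was found both in members that were higher in D351 and in those that were not.

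Adam19 had the highest ratio of the members in the main setting, but not with the floor at the 60th percentile (53.3), where the D16 values lie below the floor and the bounds were 1.80 for Adam19, 2.08 for Timp2 and 1.85 for Mmp11 on the log2 scale. Its single probe set (103554_at) measured 36.8 in D16 and 185 in D351, which is 5.03-fold more in D351 or 2.33 on the log2 scale. This is 4.51 times the SD between probe sets, and 98.5% of the 6098 measured genes had a lower ratio. Adam19 lies on chromosome 11.

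Mmp11, on chromosome 10, measured 52.7 in D16 and 192 in D351 by its single probe set (100016_at). The D351 level was 3.65-fold that of D16, or 1.87 on the log2 scale, and 97.4% of genes had a lower one. The D16 values of Adam19 and Mmp11 were 2.11 and 3.03 times the floor. They fall within the range of the 15 control probe sets of antisense orientation on the D16 array, from 5.5 to 54.0, so the size of both ratios rests on weak D16 signals. The D351 values of both genes lay above the range of those controls on the D351 array, from 3.66 to 41.6.

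Mmp14 was bright in both clones. Its probe set (160118_at) measured 429 in D16 and 992 in D351, so that even the D16 value was 24.7 times the floor. The D351 level was 2.31-fold that of D16, and this log2 ratio of 1.21 exceeds the SD between probe sets 2.34 times. Mmp14 and Bmp1 both lie on chromosome 14.

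Bmp1 was measured by a pair of probe sets that agree closely. The brighter (95557_at) gave 130 in D16 and 265 in D351, a log2 ratio of 1.03, and the other (92701_at) 59.5 and 112, a log2 ratio of 0.91. Their mean log2 ratio was 0.97 ± 0.08 (SD between probe sets, n = 2, which are not replicates of the clones). Bmp1 sits at the 2-fold threshold: 1 probe set lies just inside it and the other just outside. With the arrays as deposited, or with quantile or loess scaling, a pseudocount or the median of its probe sets, Bmp1 was just under 2-fold, and the count of members higher in D351 was then 4 of 7.

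Mmp2, on chromosome 8, was below the floor by both of its probe sets. The values were 3.64 in D16 and 9.26 in D351 for 161509_at, and 1.77 and 2.85 for 95663_at. Mmp3, on chromosome 9, measured 4.13 in D16 and 8.24 in D351. All these values are higher in D351, but they lie where the array does not separate signal from background, and no ratio is given. Such values do not show that the transcripts were absent.

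Among the inhibitors, Timp2 was the one that differed by at least 2-fold. Its brightest probe set (93507_at) measured 52.5 in D16 and 225 in D351, which is 4.29-fold more in D351 or 2.10 on the log2 scale, with 98.1% of genes lower. The D16 value also lies within the range of the antisense controls. The other probe sets of Timp2, both below the floor, gave 4.32 and 14.0 (160116_at) and 3.34 and 9.46 (161515_i_at), again with the higher value in D351. The ratio of Timp2 therefore rests on 1 probe set. Timp2 is on chromosome 11, as is Adam19.

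Timp1, on the X chromosome, measured 2961 in D16 and 2426 in D351 by 101464_at, 170 and 139 times the floor. Its log2 ratio of -0.29 is smaller than the SD between probe sets, and 34.8% of genes had a lower ratio. Its sign turned to 0.11 when the arrays were scaled on their hybridization controls and to 0.01 with quantile scaling. Another Timp1 probe set (162107_r_at) stood at 3.83 and 0.61, below the floor. Timp3, on chromosome 10, measured 974 in D16 and 953 in D351 (160519_at), a log2 ratio of -0.03, which was 0.36 under the hybridization control scaling. Of all measured genes, 96.6% had a ratio at least as far from 0 as that of Timp3.

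**Figure D2:**
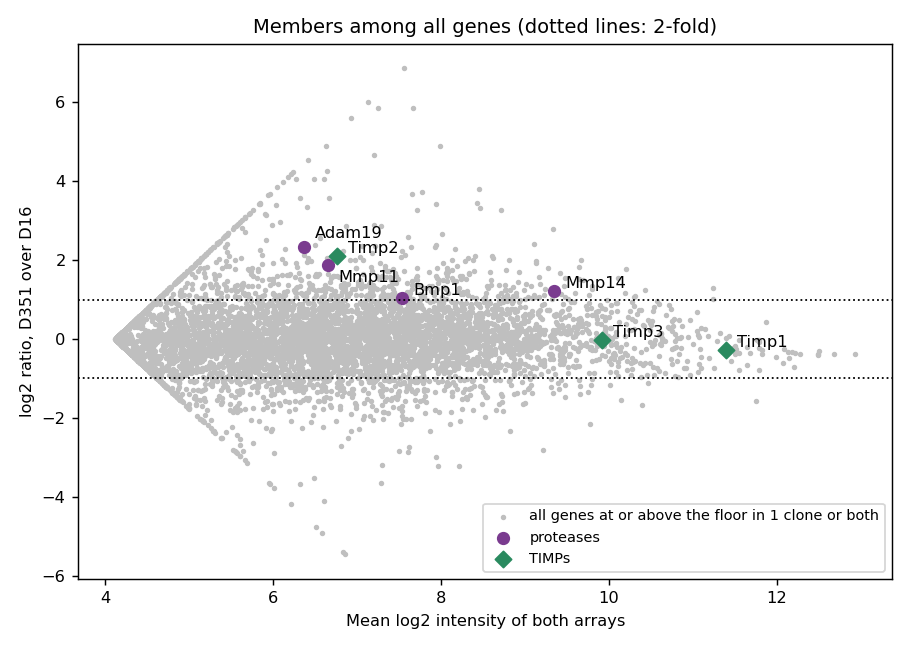
Log2 ratio of D351 over D16 against the mean log2 intensity of both arrays for 6098 genes (grey), with the measured proteases as circles, the TIMPs as diamonds and dotted lines at 2-fold. Adam19, Timp2 and Mmp11 lie well above the upper line, Mmp14 and Bmp1 just above it, and Timp1 and Timp3 near 0.

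The members thus differed among themselves. Of the 21 pairs of measured members, 15 had log2 ratios that differed by more than 0.73, the SD expected for a difference of a pair of probe sets. The ratio of Timp2 was 5.24-fold that of Timp1 and 4.39-fold that of Timp3. The ratio of Mmp14 was 2.36-fold that of Timp3, an inhibitor of MMP14, while the ratio of Timp2, its partner in the activation of MMP2, was 1.86-fold that of Mmp14. Adam19 and Timp2 differed from each other by 0.23 on the log2 scale, and Timp1 and Timp3 by 0.26, both within that SD. The proteases covered log2 ratios from 1.03 to 2.33 and the inhibitors from -0.29 to 2.10. These differences between members do not depend on a scaling that multiplies a whole array.

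**Figure D3:**
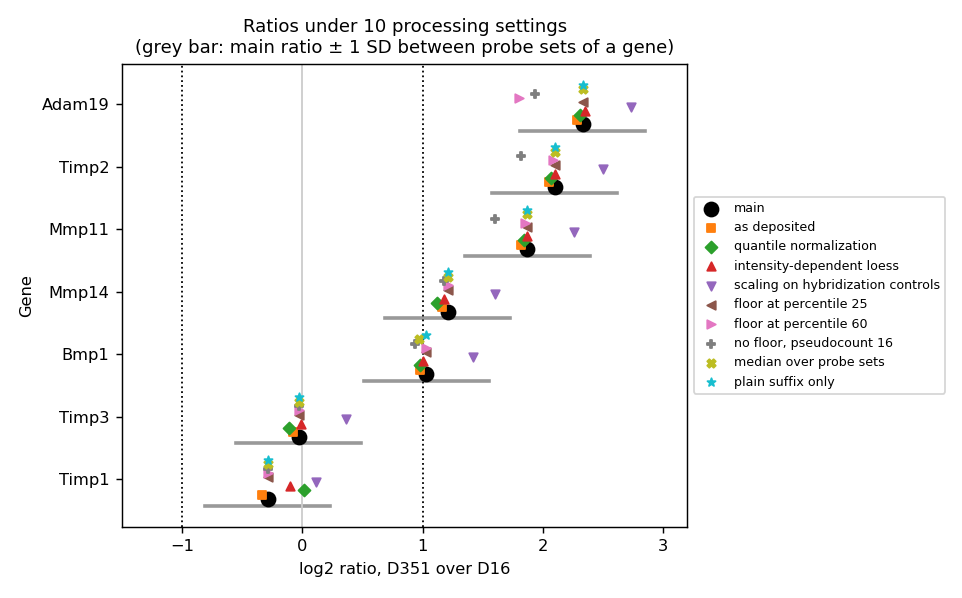
Log2 ratio of D351 over D16 of the 7 measured members under the main setting (black) and 9 alternatives, with a grey bar for the main ratio ± 1 SD between probe sets of a gene (0.52) and dotted lines at 2-fold. Adam19, Timp2, Mmp11 and Mmp14 stay to the right of the 2-fold line at every setting, Bmp1 lies on it, and Timp1 and Timp3 lie between -0.34 and 0.36.

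No other measured MMP or ADAM gene reached 2-fold in the main setting. However, 4 of these 11 were below the floor in 1 clone and have only a bound, which does not show a difference under 2-fold. Of 26 further MMP, ADAM and ADAMTS genes on the array, 15 were below the floor in both clones, among them the stromelysin gene Mmp10 and the collagenase gene Mmp13. The log2 ratios or bounds of the other 11 lay between -0.61 and just under 1. Mmp9, the gelatinase B gene, had 26.6 in D351 and a value below the floor in D16 (5.41), a bound of at least 1.53-fold. That D351 value lies within the range of the antisense controls, and another Mmp9 probe set was below the floor in both clones (4.23 and 0.61). Mmp12, the macrophage elastase gene, was at 11.0 and 17.8, the latter barely over the floor, from a probe set of a kind open to cross-hybridisation. Among the ADAM genes, Adam9 measured 296 and 328, and Adam10, which encodes a widely used sheddase, 102 and 201, a log2 ratio of 0.98 with 0.64 for its other probe set. Adam10 and Adam28 fell just short of 2-fold, Adam28 from a probe set open to cross-hybridisation. Adam12 was below the floor in D16 (15.8 and 34.8), so that its ratio, just under 2-fold, is only a lower bound. Its D351 value also lies within the range of the antisense controls. Of 9 measured ADAM genes, 1 passed 2-fold towards D351 with quantile scaling and 2 with loess. With scaling on the hybridization controls 3 did, at which setting 19.9% of all genes passed it towards D351. With the floor at the 25th percentile, 1 MMP gene and 1 ADAM gene reached 2-fold towards D351 and 1 ADAM gene towards D16, and with a pseudocount 1 ADAM gene towards D16.

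Among astacins and procollagen enhancers, Tll1, which encodes the BMP1-related protease tolloid-like 1, had 88.4 in D351 and 12.4, below the floor, in D16, so that D351 was at least 5.08-fold higher. Pcolce, which encodes an enhancer of BMP1 and is named here after its values were seen, measured 1277 and 1633. Of 2 further measured inhibitor genes, Reck, a membrane-anchored inhibitor of MMP2, MMP9 and MMP14, was 2.95-fold higher in D351 (64.0 and 189), with a log2 ratio of 1.56. Spock1, a testican proteoglycan gene, was at 36.7 in D16 and below the floor in D351, at least 2.11-fold higher in D16. That D16 value lies within the range of the antisense controls.

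Among the 9 measured activators of proenzymes, 2-fold was reached by 2 towards D351 and by 1 towards D16, beside 10.6% and 8.87% of all genes. Pcsk6, a proprotein convertase gene, measured 30.7 and 105 (3.41-fold higher in D351), with a D16 value within the range of the antisense controls. Plat, the tissue plasminogen activator gene, measured 284 and 671 (2.36-fold). Plaur, the urokinase receptor gene, had a log2 ratio of -1.55. Furin, the convertase that activates MMP11 and MMP14, measured 275 and 254 and is named after its values were seen. The 11 measured surface partners and clearance genes held 1 past 2-fold towards D351 and 2 towards D16. Thbs2, whose product binds MMP2 and directs it to uptake, exceeded its D16 level in D351 by at least 64.4-fold. Lrp1, the receptor for that uptake, also named after its values were seen, measured 717 and 1424, just under 2-fold. Cd151, a tetraspanin gene, was 2.77-fold higher in D16, again from a probe set open to cross-hybridisation, and Cav1, the main caveolin gene, 2.29-fold.

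Genes for substrates were higher in D351 more often than in D16. Past 2-fold, 13 of 26 measured substrate genes of BMP1 and the MMPs had more signal in D351 and 1 in D16. The shares of all genes were 10.6% and 8.87%. The median log2 ratio of these 26 was 0.91. The substrate lists were chosen with earlier results of these data known. For BMP1 the count was 6 of 11 in D351 and 0 in D16, led by Ogn (166 and 671), Col5a1 (405 and 1635) and Col3a1 (444 and 1128). With the median over probe sets in place of the brightest, 4 of 11 reached 2-fold and the list median was 0.62 in place of 1.02. Other probe sets of Col1a1 and Col1a2, named after their values were seen, gave log2 ratios of 0.41 and -0.62, beside 1.29 and 1.02 for the brightest. For the MMPs the count was 7 of 15 in D351 and 1 in D16. Ccl7 (20.0 and 1158) and Cxcl12 (332 and 1155), chemokine genes whose products MMPs can trim, were higher in D351. Igfbp6 (1015 and 202) was higher in D16. The D16 value of Ccl7 lies within the range of the antisense controls. Of 6 measured substrates of ADAM sheddases, 3 were higher in D351 and 2 in D16. The TNF receptor genes Tnfrsf1a and Tnfrsf1b had log2 ratios of 1.29 and 1.27, but another Tnfrsf1a probe set gave -0.74. The D16 value of Tnfrsf1b (29.8) also lies within the range of the antisense controls. Ereg, the epiregulin gene, was at least 4.23-fold higher in D16.

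AP-1 and Ets factors, which can bind promoters of several MMP genes, had a median log2 ratio of -0.53 over 11 genes, and 1 was at least 2-fold apart: Jun was 2.80-fold higher in D16 (171 and 61.0). In the main setting 0 of these 11 reached 2-fold towards D351, though 3 of the 11 have only bounds. With the hybridization control scaling 2 did, at which setting 19.9% of all genes passed 2-fold towards D351. Another Junb probe set gave a log2 ratio of 1.32 in the main setting, beside 0.51 for the brightest. Another Etv4 probe set gave -0.99, beside 0.08. Of 12 cytokine and growth factor genes on the array that can induce MMP genes, 6 were below the floor in both clones, and 0 of the other 6 reached 2-fold in the main setting. Tgfb3 measured 140 and 270, and Pdgfa 198 and 299, while the other 4 were below the floor in 1 clone and have only bounds. With the hybridization control scaling 3 reached 2-fold towards D351, with the floor at the 25th percentile 2 each way, and with a pseudocount 1 towards D16. Over all of these lists, 2-fold was reached towards D351 by 21 of 85 measured genes (24.7%) and towards D16 by 8 (9.41%), beside 10.6% and 8.87% of all genes, with a median log2 ratio of 0.36.

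**Figure D4:**
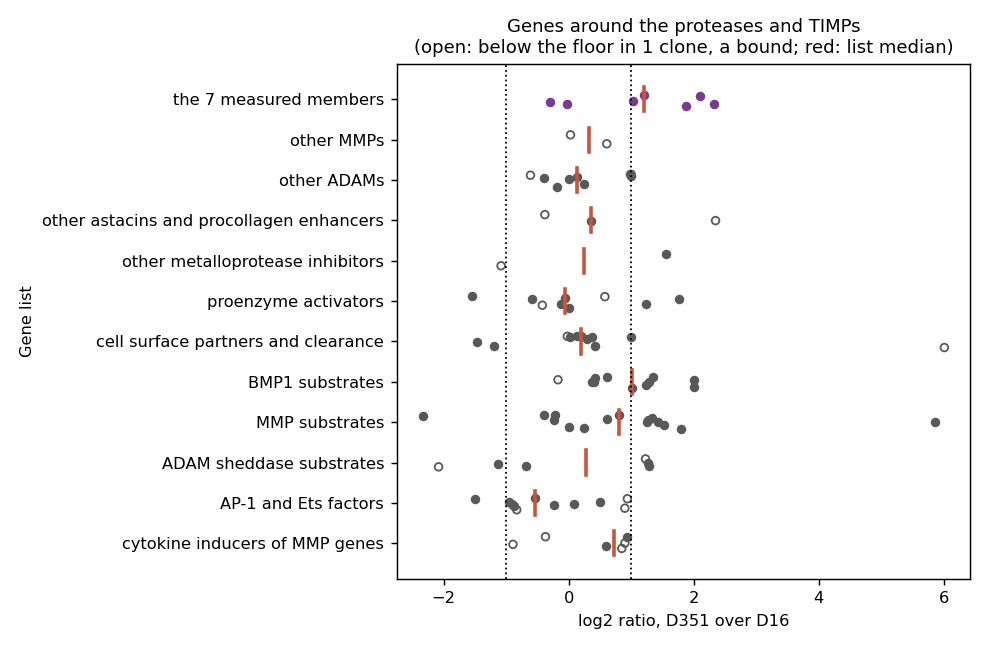
Log2 ratio of D351 over D16 of each measured gene in 11 lists around the proteases, with the 7 measured members on top; open symbols are bounds with 1 clone below the floor, red lines are list medians and dotted lines mark 2-fold. The BMP1 and MMP substrate lists have the highest medians among the lists, 1.02 and 0.81, and the AP-1 and Ets list the lowest, -0.53.

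Fibroblasts were used as feeders and also make matrix proteases, so markers of other cell types were set beside these ratios. Of 10 fibroblast markers, 9 reached the floor in each clone. Past 2-fold were 5 towards D351 and 1 towards D16, beside 10.6% and 8.87% of all genes. The summed level of the 10 markers was 8685 in D16 and 12489 in D351. The highest log2 ratios of these markers were 2.01 for Lum (23.4 and 94.0) and 1.55 for Postn (415 and 1220). The D16 value of Lum lies within the range of the antisense controls. Col1a1 measured 1539 and 3770, and Col1a2 measured 1694 and 3436. The 1 towards D16 was S100a4 (1835 and 414). Another Pdgfra probe set gave a log2 ratio of -1.54, beside -0.09 for the brightest. Col1a1, Col1a2, Col3a1 and Dcn are also among the substrate genes above, so these counts are not separate from that result. These markers are named after their values were seen. Of 11 macrophage markers, 7 were below the floor in both clones, Ptprc and Adgre1 among them, and the summed level was 144 and 232. Past 2-fold, 1 was higher in D351 and 0 in D16. That marker, Cd68, had 36.9 in D351 and 3.74, below the floor, in D16. Its D351 value lies within the range of the antisense controls. Of 8 endothelial markers, 5 were below the floor in both, including Cdh5 and Tek, with sums of 201 and 222. Here too 1 was past 2-fold towards D351 and 0 towards D16. Flt1 had 66.1 in D351 and 16.2, below the floor, in D16, so that D351 was at least 3.80-fold higher. Its other probe set gave a log2 bound of 1.46. Of 6 markers of vessel-associated progenitors on the array, Kit and Kdr were below the floor in both clones, and 1 marker passed 2-fold each way. Cd34 was at 475 in D16 and below the floor in D351, whereas Pdgfrb measured 54.4 and 197, and Thy1 measured 1535 and 1041. No marker on the array was listed at 0. The part of fibroblast markers in the ratios of the proteases was not tested. The 3′ to 5′ signal ratio, a measure of RNA integrity, was 1.81 in D16 and 1.37 in D351 for the Actb control probe sets. For those of Gapdh it was 1.56 and 1.44. The part of RNA integrity was not tested either.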

How the data were processed

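For each clone, total RNA was hybridised to 1 Affymetrix U74A array. The authors deposited 1 linear intensity per probe set. How they were computed is not given in the sources used here. The 2% trimmed mean was 100.1 on both arrays, and the medians were 31.8 and 29.7. Arrays carry no count depth, so their number limits the precision.

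A platform annotation of array version 2, which may differ from the array used, gave a single symbol to 10833 of the 12422 probe sets that are not controls, several to 396 and none to 1193. Symbols were updated by Entrez number to RefSeq (GRCm38.p6). All 9 members matched by symbol, and promoter windows were found for 7.

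Arrays were scaled to one median log2 level over probe sets that reached the floor in both (factors 0.983 and 1.017). Values below the floor of 17.4 were set to it, and such a ratio is a bound, written as at least N-fold. For each gene the brightest probe set by mean level was used. The floor was reached by 60.7% of probe sets in D16 and 59.3% in D351. It lies below the median of the antisense controls on the D16 array (27.3), so a D16 value just over it can still be background. Probe sets with a suffix such as f, s or r can match other transcripts. Differences were counted at 2-fold. The procedure was tested on simulated arrays.

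The members and gene lists were chosen with earlier results of these data known. Named were all members and, from each list, the measured genes that reached 2-fold, up to the 3 most different, or else the 2 brightest. No gene was named for a pattern like that of a member, because 2 arrays give a single ratio. Alternatives covered scaling, floor, probe set rule and threshold. The tools were pandas 2.3.3, numpy 2.4.6, statsmodels 0.14.6, scipy 1.17.1 and matplotlib 3.10.9 under Python 3.11.15.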

Additional observations from a re-analysis of the deposited data

How the results depend on the processing

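No paired analysis was possible because D16 and D351 have a single array each, which also leaves no replicate to omit. Of 63 ratios of measured members over 9 alternatives, 62 moved by less than 0.52 (log2), 1 moved by more and 0 reversed from a called direction; the one that moved was Adam19, 1.80 with the floor at the 60th percentile, which by construction raises its D16 value to the floor. Adam19, Timp2, Mmp11 and Mmp14 stayed past 2-fold in all 9, over ranges of 1.80 to 2.73, 1.82 to 2.50, 1.60 to 2.26 and 1.12 to 1.60, and Bmp1 in 4 of 9 (0.94 to 1.42). Some of these settings could not move the ratios. The use of plain suffixes only and the lower floor could move none, because each rests on a plain probe set above the floor in both clones. The median over probe sets could move Bmp1 alone. At a 3-fold threshold 3 of the 7 measured members remained higher in D351, beside 4.1% of all genes. Lowering the floor to the 25th percentile (7.27) let in Mmp2 and Mmp3 as bounds towards D351 of at least 1.27-fold and 1.13-fold. Scaling on the hybridization controls moved the median log2 ratio of all genes from -0.03 to 0.34, and 82.9% of genes past 2-fold were then higher in D351, against 54.4%. The surrounding genes past 2-fold, 21 higher in D351 and 8 in D16 of 85, were then 33 and 5. The shares of all genes were then 19.9% and 4.1%. With the lower floor the surrounding genes were 27 and 15 of 103, beside 11.9% of all genes each way. The counts were 35 and 16 of 85 at 1.5-fold, beside 21.1% and 21.0% of all genes. At 3-fold they were 7 and 2, beside 4.1% and 2.6%. Under the hybridization control scaling Spock1 and Cav1 were no longer 2-fold higher in D16.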

Other observations

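The genes next to each member on its chromosome were also read, a comparison chosen after seeing the data. For each member these were the nearest 2 measured protein-coding genes on either side in the RefSeq gene order of GRCm38.p6, which gave 36 genes in all. Past 2-fold were 2 of these (5.56%) towards D351 and 0 towards D16, fewer than the shares of 10.6% and 8.87% among all genes. Lgals3bp, a secreted galectin-binding glycoprotein gene and the nearest measured gene after Timp2, measured 63.9 in D16 and 271 in D351, a log2 ratio of 2.08 beside 2.10 for Timp2. Gstt1, a glutathione transferase gene near Mmp11, had 60.2 in D351 and a D16 value below the floor. Of the direct neighbours of Mmp11, Smarcb1 measured 331 and 373. Chchd10, the other, had 28.8 in D351 and a D16 value below the floor (9.04), a log2 bound of 0.73. Around Mmp14, Mrpl52 measured 878 and 969, and Lrp10 measured 190 and 327. Around Adam19, Ebf1 had a log2 ratio of -0.30, and Rnf145, the next measured gene on that side, 0.93 (203 and 388). On the other side Cyfip2 was below the floor in D351 and has only a bound, -0.10. Timp1 lies within the annotated span of the synapsin gene Syn1, and Timp3 within that of Syn3.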
